A study of Arvicanthis niloticus with 28 samples.

Results

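Genes of the vascular endothelial growth factor (VEGF) family were examined by RNA-seq of vessels isolated from the retinas of 28 Nile rats (Arvicanthis niloticus), a day-active rodent that can develop diabetes on an energy-rich diet. The family was taken by name: the receptor tyrosine kinases Flt1, Kdr and Flt4, the co-receptors Nrp1 and Nrp2, and the ligands Vegfa, Vegfb, Vegfc and Pgf. All 9 genes were among the 18970 genes of the expression tables. The questions were whether they differed between vessels close to capillary dropout and vessels in the normal range, whether they followed density within that range, whether they differed by sex, and whether they followed blood glucose.

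VEGF ligands are secreted proteins that act on receptors of the endothelial cells lining blood vessels. VEGF-A, the product of Vegfa, binds the receptors encoded by Flt1 (VEGFR1) and Kdr (VEGFR2), and Kdr carries most of its growth and permeability signal, while Flt1 binds the ligand tightly with a weak kinase and also exists as a soluble decoy. VEGF-B and placental growth factor, the product of Pgf, bind Flt1, VEGF-C binds Flt4 (VEGFR3) and Kdr, and the neuropilins Nrp1 and Nrp2 present ligands to these receptors. In the retina VEGF-A comes largely from glia and neurons, rises when oxygen is low, and is the target of the anti-VEGF drugs given for diabetic eye disease.

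The pre-dropout group held 4 rats with 17.1 to 17.9 acellular capillaries per mm2, all of them male. The normal group held 24 rats, 8 male and 16 female, with 5.90 to 14.5 per mm2. An acellular capillary is an empty tube of basement membrane left after the vessel cells have died. Every rat was labelled wild type (WT) and untreated, and each gave 1 library of its whole retinal vasculature. Random blood glucose lay between 57.4 and 443 mg/dL in the pre-dropout rats and between 52.0 and 422 mg/dL in the normal rats. According to the study's methods the colony was fed either a high-fiber or a high-caloric diet, and the labels used here give neither the diet nor the age of a rat. The vessels were freed from the retina by osmotic lysis, DNase and washing, a step meant to wash the neurons away. Rats are named here by their tags, which end in M for males and F for females.

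Library totals lay between 153111 and 10029207 counts, and 2 libraries, T410F and T448M, held fewer than 1000000. All 10 endothelial markers were in the tables, and the tight junction gene Cldn5 and the endothelial cadherin Cdh5 averaged 2700 ± 1290 and 268 ± 124 CPM (counts per 1000000, SD, n = 28). The pericyte gene Rgs5 averaged 4834 ± 2403 CPM. Markers of rods and inner retinal neurons were present too, and their mean level (the neural marker level, on the log2 CPM scale) ran from 1.37 in T420F to 6.58 in T370M. It was 2.81 to 4.71 in pre-dropout rats, against 1.37 to 6.58 in normal rats. Of the 8 markers of microglia and macrophages, 6 had no count in 14 or more rats.

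Flt1 and Kdr were the most abundant family members in these vessels. TPM, transcripts per 1000000 with counts divided by transcript length so that genes can be set side by side, averaged 599 ± 267 for Flt1 and 452 ± 192 for Kdr (SD, n = 28 here and below). The lymphatic-type receptor Flt4 averaged 31.7 ± 14.1 TPM. Of the co-receptors, Nrp1 averaged 95.9 ± 55.4 TPM and Nrp2 only 7.15 ± 7.78 TPM. In bulk RNA, fewer cells of a type and less RNA per cell cannot be told apart.

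The ligands were far less even between rats than the receptors. Vegfb averaged 156 ± 172 TPM, Vegfa 31.2 ± 33.6 TPM, Vegfc 23.9 ± 26.6 TPM and Pgf 6.16 ± 8.48 TPM, so that in each the SD exceeded the mean. Counts were found in all 28 rats for Flt1, Kdr, Flt4 and Nrp1, in 27 for Vegfa, 25 for Nrp2, 21 for Vegfb, 18 for Vegfc and 16 for Pgf. Where no count was found, a level of 0.299 to 19.6 CPM (3 counts in the library concerned) is still possible by counting error alone. In the order Flt1, Kdr, Vegfb, Nrp1, Flt4, Vegfa, Vegfc, Nrp2 and Pgf, every pair of neighbours overlapped within 1 SD. Nrp1 stood above Flt4 in 27 of 28 rats, whereas Flt1 stood above Kdr in only 17.

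The rank of Vegfb depended on the length correction. A TPM of Vegfb stood for 0.0397 of the counts that a TPM of Kdr did (median of 21 rats), so its rank of 3 by TPM rested on 1056 counts over all libraries, against 91582 for Kdr. In CPM, which are not corrected for length, Vegfb averaged 8.64 ± 10.03 and ranked 8 of 9, between Vegfc and Pgf. Vegfc and Pgf also carried fewer counts per TPM than Kdr, at 0.248 and 0.493 of its value.

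**Figure D1:**
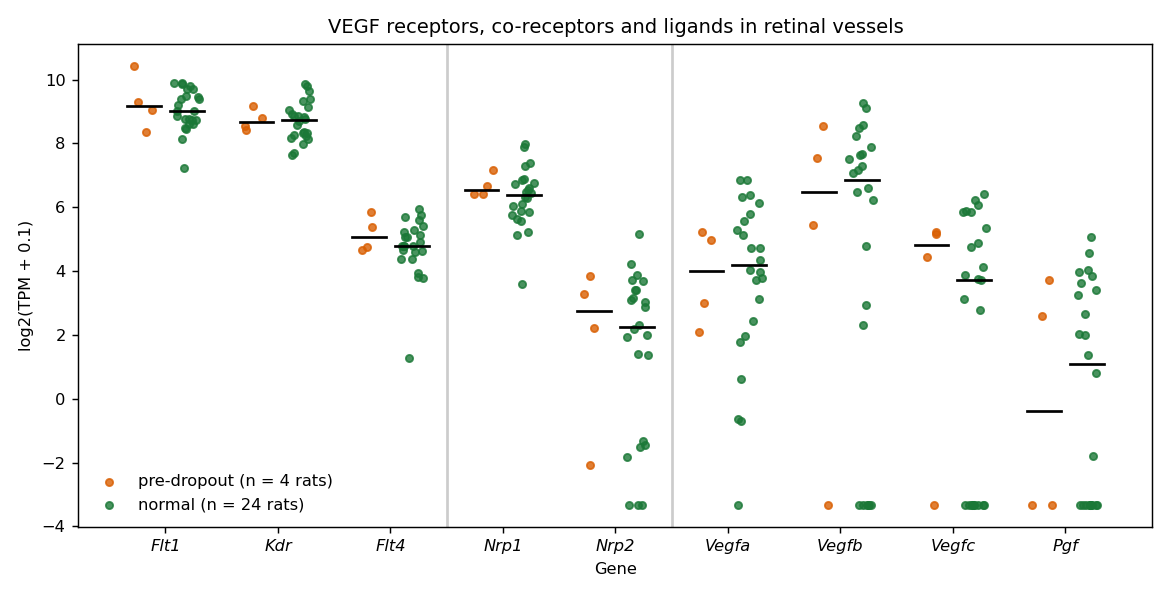
Each point is 1 rat, the vertical axis is log2(TPM + 0.1), and black bars are group medians, with 4 pre-dropout rats (orange) left of 24 normal rats (green) for each gene. The receptors form tight clouds and the ligands spread down to the floor of no counts, and the pre-dropout points lie inside the normal cloud for all genes but Flt1, whose highest value is pre-dropout rat T353M at 1375 TPM.

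The balance between the main receptors changed from rat to rat. Summed over Flt1, Kdr and Flt4, receptor TPM was 1186 ± 461 in pre-dropout rats (SD, n = 4) and 1064 ± 261 in normal rats (SD, n = 24). Flt1 made up 54.3% ± 14.997 of that sum over all 28 rats, Kdr 42.7% ± 15.5 and Flt4 2.98% ± 1.17. The log2 ratio of Flt1 to Kdr, from TPM plus 0.1, ran from -1.53 in T398F to 1.87 in T353M. It averaged 0.55 ± 0.92 in pre-dropout rats and 0.35 ± 0.998 in normal rats, a difference smaller than either spread.

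Nrp1 was the major neuropilin in every library. Its log2 ratio to Nrp2 was positive in 28 of 28 rats, with a mean of 4.85 ± 2.77 and a lowest value of 0.58 in T420F, the rat with the most Nrp2. In rats without Nrp2 counts the added TPM sets the ratio, and with TPM plus 1 the mean was 4.04 ± 1.81. Vegfa stood below Kdr in 28 of 28 rats, with a mean log2 ratio of -4.98 ± 2.08. Vegfb stood above Vegfa on the TPM scale in 20 of 28 rats, and this ratio had the widest spread of those computed, 0.69 ± 4.85. That order too depended on the length correction. Vegfb carried 0.0397 of Kdr's counts per TPM and Vegfa 1.68. In CPM, Vegfb averaged 8.64 ± 10.03 and Vegfa 72.0 ± 70.3.

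**Figure D2:**
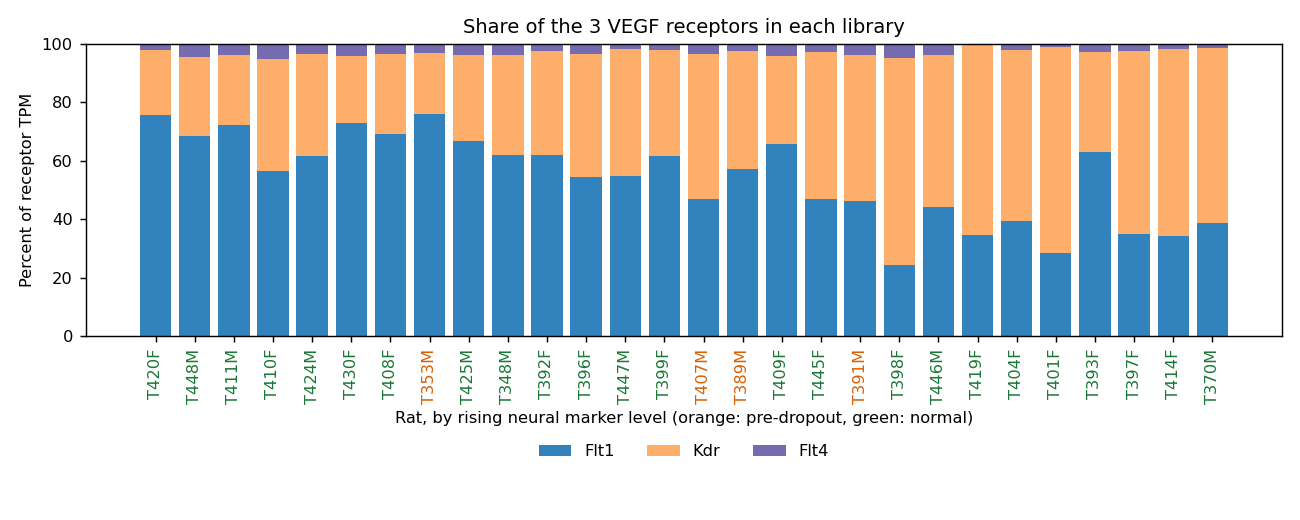
Bars give the percent of the summed TPM of the 3 receptors held by Flt1 (blue), Kdr (orange) and Flt4 (purple) in each of 28 rats, ordered by rising neural marker level. The Flt1 share is 75.7% in T420F at the low end and 38.8% in T370M at the high end, and pre-dropout rats (orange names) stand in the middle of the order.

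No family member passed the test between pre-dropout and normal vessels. Kdr averaged 682 ± 170 CPM in pre-dropout rats (SD, n = 4) and 659 ± 225 CPM in normal rats (SD, n = 24). For every one of the 9 genes the values of all 4 pre-dropout rats fell within the range of the normal rats on the CPM scale. The same count was not made over all genes, so it is not read as a trait of the family. Flt1 had 2567, 1578, 1173 and 849 CPM in the pre-dropout rats T353M, T389M, T391M and T407M, against a lowest, median and highest of 301, 1159 and 2604 CPM in normal rats. Kdr had 484, 760, 872 and 611 CPM in the same pre-dropout rats, against 314, 647 and 1119 CPM in normal rats. The groups overlapped fully for both genes, and T353M was the highest of its group for Flt1 and the lowest for Kdr.

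Across all genes, edgeR's quasi-likelihood test called 0 of 13800 (0%), where a call needed a Benjamini-Hochberg adjusted p under 0.05 and over 2-fold change, and 394 (2.86%) had an unadjusted p under 0.05. DESeq2 called 5 genes and limma-voom 4, none of them a member. All 9 members passed the filter on low counts. The log2 fold change of pre-dropout over normal was 0.24 for Flt1 (SE 0.34), 0.01 for Kdr (SE 0.29), 0.27 for Flt4 (SE 0.43) and 0.16 for Nrp1 (SE 0.43), all with an edgeR adjusted p of 0.9999. Without pre-dropout rat T353M the Flt1 value was -0.10. Estimates were higher in pre-dropout rats for 6 members and lower for 3, against 41.1% higher and 58.9% lower over all genes, whose median was -0.13.

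Nrp1, the co-receptor of VEGF-A and of class 3 semaphorins, was the most even of the members among the pre-dropout rats on the CPM scale, with a coefficient of variation of 0.154 against 0.249 for Kdr, whereas on the TPM scale it was less even than Kdr, at 0.267 against 0.233. It had 172, 163, 121 and 142 CPM there, in the order T353M, T389M, T391M and T407M, against 14.9, 110 and 338 CPM as the lowest, median and highest in normal rats. All 4 pre-dropout values lay above the normal median, and 4 normal rats lay above the highest of them. Flt4 had 138, 86.6, 120 and 83.2 CPM in the pre-dropout rats, against 5.77, 85.6 and 184 CPM in normal rats. For Flt4, 3 of the 4 pre-dropout values were above the normal median.

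Nrp2 and the ligands were too variable for differences of this size to be told from 0. Nrp2 had 0.241, 34.2, 9.34 and 23.6 CPM in the pre-dropout rats, against 0, 10.1 and 81.8 CPM in normal rats. Vegfa had 17.1, 91.0, 95.8 and 12.4 CPM in the pre-dropout rats, against 0, 55.3 and 248 CPM in normal rats. Within the pre-dropout group Vegfa was high in T389M and T391M, the rats with 443 and 278 mg/dL glucose and the higher neural marker levels of the group. The log2 fold changes were 0.16 for Nrp2 (SE 1.18), -0.55 for Vegfa (SE 0.89), 0.21 for Vegfb (SE 1.39), -0.08 for Vegfc (SE 1.53) and -0.44 for Pgf (SE 1.76), with an edgeR adjusted p of 0.9999 each. Sex differs between the groups, and with sex as a covariate Vegfa was at 0.26 and Vegfb at -0.71, with an edgeR adjusted p of 1 for both.

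**Figure D3:**
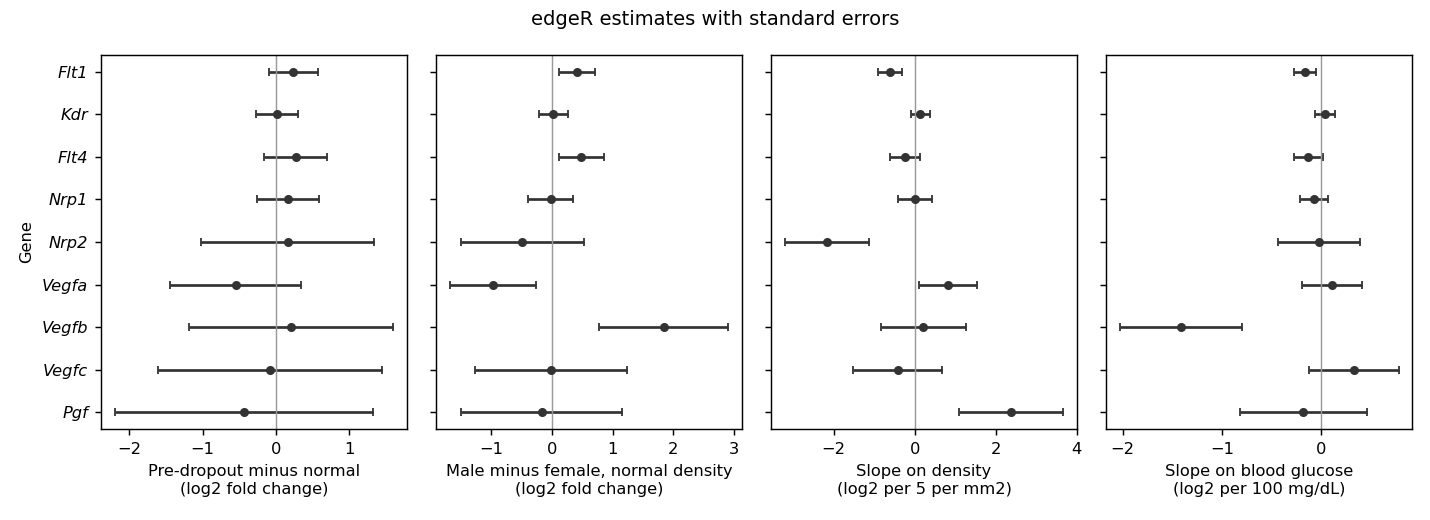
Points are edgeR log2 estimates and bars standard errors for the 9 genes in 4 comparisons: pre-dropout minus normal, male minus female at normal density, the slope per 5 acellular capillaries per mm2 and the slope per 100 mg/dL glucose. Receptor estimates have short bars and run from -0.60 for Flt1 on density to 0.48 for Flt4 by sex. The largest estimates belong to sparsely counted genes, such as 2.38 for Pgf on density, and the horizontal scales differ between panels.

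Genes that work with the receptors gave no calls either. Of 28 tested receptor partners and regulators, 13 had a higher estimate and 15 a lower one, with a median log2 of -0.03, and 0 were called. The smallest p values there belonged to Sema3g, a class 3 semaphorin of endothelial cells, with a log2 fold change of 0.67 (SE 0.34), and to Hspg2, the basement membrane proteoglycan perlecan, with 0.62 (SE 0.32). Of 28 signal transduction genes, 17 were higher and 11 lower with a median of 0.10. Iqgap1, a scaffold that binds Kdr, was at 0.53 (SE 0.33) and the kinase Map2k2 at -0.73 (SE 0.46).

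Of 19 tested VEGF-responsive endothelial genes, 10 were higher and 9 lower, with a median of 0.12. Tnfaip3, an inhibitor of NF-kB signalling, had the largest difference of these, -5.21, and also the largest SE, 2.43. Its level in the rats is not given here. The adhesion molecule Vcam1 was at 0.63 (SE 0.39). Of 16 hypoxia regulators and targets, 7 were higher and 9 lower, and Hif1a and the glycolytic enzyme gene Ldha were at -0.30 (SE 0.39) and -0.29 (SE 0.25). Among 7 related growth factor genes, Pdgfb, the endothelial signal to pericytes, was at 0.64 (SE 0.45) and its receptor Pdgfrb at -0.41 (SE 0.41). None of the genes of these lists was called, with edgeR adjusted p of 0.9999 for each named gene. Beside these values, 9 of 10 endothelial markers had a higher and 7 of 7 pericyte markers a lower estimate in pre-dropout rats, with medians of 0.19 and -0.44. Estimates were lower for 10 of 10 inner retinal neuron markers and 7 of 8 rod markers, with medians of -0.61 and -0.83, and none of these 4 lists had a call. Their part in the values of the members, such as Vegfa at -0.55, was not tested beyond the neural covariate.

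Because the pre-dropout rats were all male, sex was compared where density was normal. Vegfb, the ligand that binds Flt1 alone among the receptors, averaged 16.4 ± 13.2 CPM in males (SD, n = 8) and 4.48 ± 4.54 CPM in females (SD, n = 16), a difference that did not pass the test. Vegfb was counted in 8 of 8 males and 10 of 16 females. Its lowest, median and highest values were 0.301, 18.3 and 36.6 CPM in males, against 0, 4.499 and 12.1 CPM in females. The groups overlapped, and males T425M and T446M lay below the female median.

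The log2 fold change of male over female was 1.85 for Vegfb (SE 1.06, p = 0.0914), and edgeR's adjusted p over 12162 genes was 0.995. Vegfa ran the other way, with 0, 47.0 and 91.6 CPM as the lowest, median and highest in males, against 1.54, 62.2 and 248 CPM in females, a log2 fold change of -0.98 (SE 0.71, edgeR adjusted p = 0.995). With the neural marker level as a covariate the Vegfa value was 0.41. Flt1 was at 0.41 (SE 0.29), Flt4 at 0.48 (SE 0.37) and Kdr at 0.02 (SE 0.25). The comparison called 3 genes of 12162 (0.0247%), Kdm5d, Ddx3y and Eif2s3y, all on the Y chromosome and higher in males, while 4.38% had an unadjusted p under 0.05, and DESeq2 called 37 with no member among them. Of the members 4 were higher and 5 lower in males, against 47.7% and 52.3% of all genes. Neural marker levels were 1.38 to 6.58 in these males and 1.37 to 6.36 in the females, and all 10 endothelial and all 7 pericyte markers had higher estimates in males. Their part in the ligand values was not tested beyond that covariate.

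Within the normal range of density no member passed the test. Flt1 and Nrp2 had negative slopes with an unadjusted p under 0.05. Flt1 changed by -0.60 log2 per 5 acellular capillaries per mm2 (SE 0.29, p = 0.0480) and Nrp2 by -2.16 (SE 1.04, p = 0.0456), with an edgeR adjusted p of 1 for both. The densest normal rat, T398F at 14.5 per mm2, had the lowest Flt1 of all libraries, 301 CPM, and 0.588 CPM of Nrp2. Without it the slopes were -0.38 for Flt1 (p = 0.218) and -1.88 for Nrp2 (p = 0.0973) in the edgeR fit across all genes. The 4 pre-dropout rats, beyond this range of density, had 849 to 2567 CPM of Flt1 all within the range of the normal rats.

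Nrp2 had 0 counts in 3 rats and no more than 1 CPM in a further 5. Pre-dropout rat T353M, at 17.1 per mm2, was among them but not in this fit. By rising density the normal rats among them were T445F (5.90), T399F (9.11), T419F (10.1), T424M (10.3), T392F (11.8), T447M (11.9) and T398F (14.5). The normal group had a median density of 8.92 per mm2, and only T445F of these was under it. Pgf had the largest slope, 2.38 (SE 1.29, p = 0.0717, edgeR adjusted p = 1). Kdr, Flt4, Nrp1, Vegfa, Vegfb and Vegfc gave slopes between -0.42 and 0.83 with p of 0.253 or more. The test called 0 of 13677 genes (0%), and 153 (1.12%) had an unadjusted p under 0.05, as 2 of the 9 members did. DESeq2 also called 0, with 247 at an unadjusted p under 0.05. Slopes were positive for 5 members and negative for 4, against 56.3% and 43.7% of all genes. On the same slope, 8 of 8 rod markers had higher estimates at higher density, with a median of 1.30, and 9 of 10 endothelial markers lower ones, with a median of -0.27. With the neural marker level as a covariate the Flt1 slope was -0.44 (p = 0.0651) and the Nrp2 slope -2.02 (p = 0.0894).

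No member passed the test on blood glucose. Vegfb had the smallest unadjusted p of the 9, with a negative slope. In the 5 rats above 200 mg/dL it had 0 CPM in T389M and T392F, 1.42 in T446M, 2.71 in T391M and 17.4 in T370M. In the 23 rats up to 200 mg/dL its lowest, median and highest values were 0, 6.87 and 36.6 CPM, so the ranges overlapped and T370M lay above that median. The slope was -1.41 log2 per 100 mg/dL (SE 0.62, p = 0.0271) with sex as a covariate, and the edgeR adjusted p over 13800 genes was 1. It was -0.90 without the covariate and -1.24 without the pre-dropout rats, with p of 0.132 and 0.112 in edgeR. Leaving out each of the 5 rats above 200 mg/dL gave slopes of -1.68 to -1.24, with edgeR adjusted p of 0.722 or more.

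No other member had an unadjusted p under 0.05 on glucose. Kdr had a slope of 0.04 (SE 0.10), Flt1 of -0.16 (SE 0.11), Flt4 of -0.13 (SE 0.15), Nrp1 of -0.07 (SE 0.14) and Vegfa of 0.11 (SE 0.30), each with an edgeR adjusted p of 1. Kdr had 314 to 965 CPM above 200 mg/dL and 315 to 1119 CPM at lower glucose. None of the 13800 genes was called (0%), 525 (3.8%) had an unadjusted p under 0.05, and DESeq2 called 21, with no member among them. Slopes were positive for 3 members and negative for 6, against 52.4% and 47.6% of all genes. Pericyte markers had lower estimates at higher glucose in 7 of 7 genes, with a median slope of -0.19, and rod markers higher ones in 8 of 8, with a median of 0.27.

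**Figure D4:**
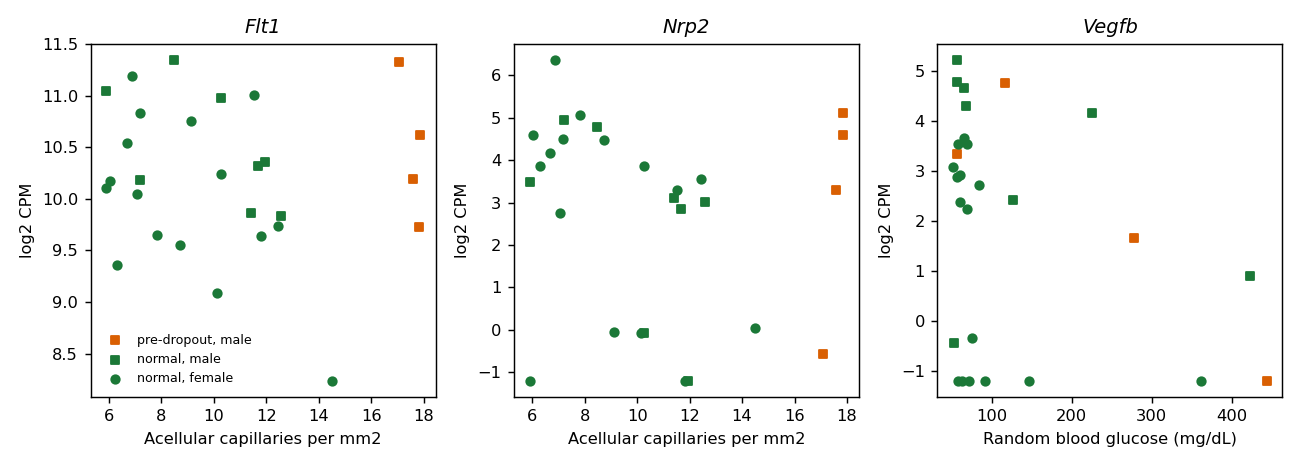
Log2 CPM of Flt1 and Nrp2 against acellular capillaries per mm2 and of Vegfb against random blood glucose in mg/dL, with 1 point per rat, squares for males, circles for females, orange for pre-dropout and green for normal. T398F is the lowest Flt1 point at 14.5 per mm2, the pre-dropout points at 17.1 to 17.9 per mm2 lie back among the others, and 2 of the 5 rats above 200 mg/dL have no Vegfb count.

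Members of the family did separate along another axis, the level of neural marker RNA in a library. This comparison was added after the values had been seen. By the slopes given below, Vegfa and Kdr were higher, and Flt1 and Nrp1 lower, in libraries with more rod and inner neuron marker RNA. In T420F, the library with the lowest neural marker level, Vegfa was at 1.54 CPM, Kdr at 470.5, Flt1 at 2335 and Nrp1 at 83.3 CPM. In T370M, the library with the highest level, Vegfa was at 84.3 CPM, Kdr at 965, Flt1 at 912 and Nrp1 at 87.7 CPM. Nrp1 was thus not lower in T370M than in T420F.

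Vegfa had the steepest slope, 0.90 log2 per log2 unit of neural marker level (SE 0.20, edgeR adjusted p = 0.00171), with sex as a covariate. Kdr had a slope of 0.24 (SE 0.05, edgeR adjusted p = 0.00215), Flt1 of -0.27 (SE 0.07, edgeR adjusted p = 0.00411) and Nrp1 of -0.28 (SE 0.10, edgeR adjusted p = 0.0496). Flt4 had the same size of slope as Flt1, -0.27 (SE 0.10), and missed the threshold with an edgeR adjusted p of 0.0726. Nrp2, Vegfb, Vegfc and Pgf had slopes between -0.28 and 0.22 with adjusted p of 0.683 or more in edgeR. Of all 13406 genes tested, 1820 (13.6%) were called, 1293 higher and 527 lower, against 4 of the 9 members. At an unadjusted p under 0.05 stood 25.8% of all genes and 5 members. Slopes were positive for 4 members and negative for 5, against 63% and 37% of all genes. The slope and the marker level come from the same libraries and share their totals, and the median slope of all genes was 0.11.

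The calls for Vegfa, Kdr and Flt1 held in each of 28 fits that left out 1 rat, with the largest adjusted p at 0.00925, 0.0231 and 0.00866 in edgeR. Nrp1 kept its call in 13 of the 28, and without T410F its adjusted p was 0.119. Nrp1 also lost it with DESeq2's size factors (edgeR adjusted p = 0.0866), with DESeq2 (adjusted p = 0.0678) and without the libraries under 1000000 counts (edgeR adjusted p = 0.0667). It lost it as well, as Vegfa did, when the level was taken from rod markers only, with edgeR adjusted p of 0.496 for Nrp1 and 0.0547 for Vegfa. Without the pre-dropout rats Flt4 was called as well, at an edgeR adjusted p of 0.0490.

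**Figure D5:**
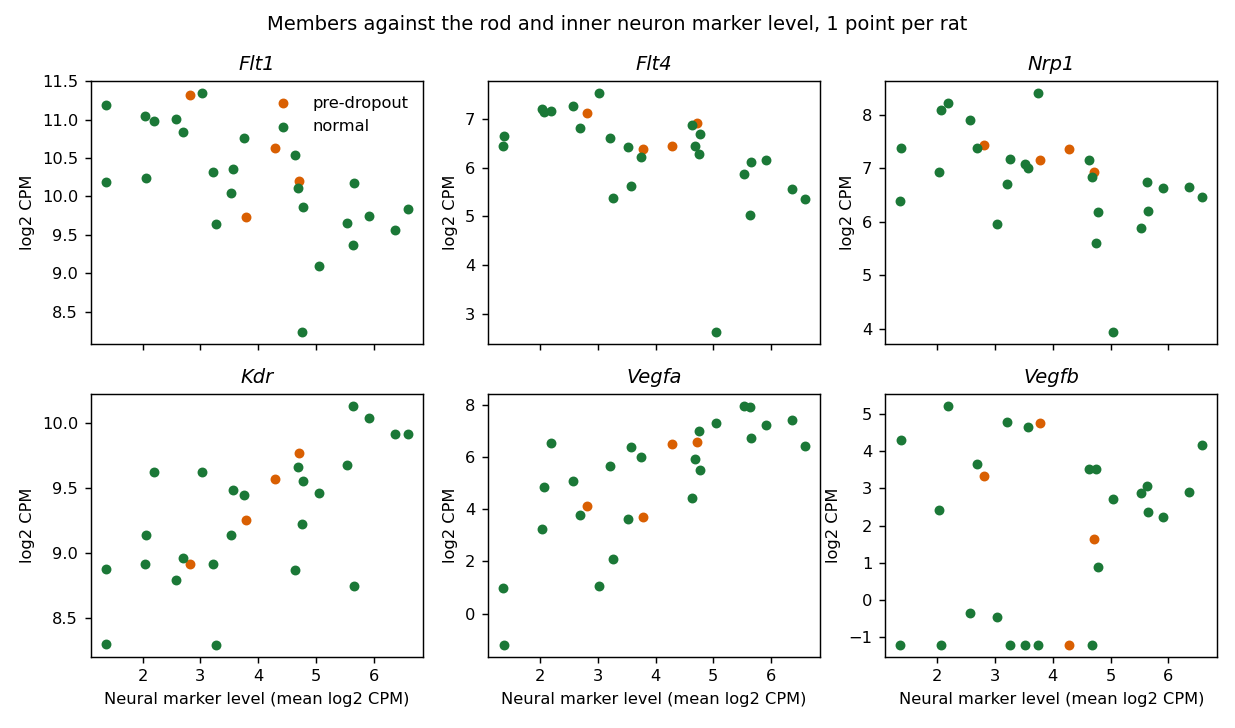
Log2 CPM of Flt1, Flt4, Nrp1, Kdr, Vegfa and Vegfb against the neural marker level (mean log2 CPM of rod and inner retinal neuron markers), with 1 point per rat, orange for pre-dropout and green for normal. The slopes are -0.27 for Flt1, -0.27 for Flt4, which was not called, -0.28 for Nrp1, 0.24 for Kdr and 0.90 for Vegfa, and T419F is far below the other libraries for Flt4 (5.77 CPM) and Nrp1 (14.9 CPM).

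The vessel markers moved the way Flt1 did and Kdr did not. On the neural marker slope 9 of 10 endothelial markers were lower and 7 of them were called, among them Cldn5 at -0.32 (SE 0.07) and Cdh5 at -0.29 (SE 0.07), with edgeR adjusted p of 0.00222 and 0.00372. All 7 pericyte markers were lower and 6 were called, such as Rgs5 at -0.33 (SE 0.08, edgeR adjusted p = 0.00244). Of 9 Müller glia and astrocyte markers 4 were called higher, Glul, Rlbp1, Slc1a3 and Aqp4, at slopes of 0.33 to 0.60, and Vim was called lower at -0.26. Kdr thus differed in sign from 9 of the 10 endothelial markers. Whether its RNA came from endothelial or other retinal cells was not tested.

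Other genes of the pathway were called on this slope too, in shares that are read against the 13.6% of all genes. Sema3a, a semaphorin of neurons that binds Nrp1, had a slope of 2.22 (SE 0.28, edgeR adjusted p = 4.77e-06), and Adamts3, the protease that activates VEGF-C, of 2.07 (SE 0.39, edgeR adjusted p = 3.28e-04). Lower with more neural RNA were the receptor partners Ptprb, the endothelial phosphatase VE-PTP, at -0.27, the semaphorin receptor Plxnd1 at -0.26, Cdh5, Ndrg1 at -0.39 and Hspg2 at -0.20. In total 2 of 27 tested partners and regulators were called higher and 5 lower. Of 28 signal transduction genes, 4 were called, a share near that of all genes: Prkcb, a protein kinase C, higher at 0.90, and Hspb1, Nck1 and Yes1 lower at -0.44, -0.40 and -0.30.

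Among 16 hypoxia genes 5 were called lower and 0 higher. They were Epas1, the HIF-2alpha gene that is abundant in endothelium, at -0.33 (SE 0.06, edgeR adjusted p = 4.91e-04), and Ndrg1, Bnip3, Slc2a1 and Egln1 at -0.39 to -0.25. Slc2a1 encodes the glucose transporter GLUT1 and is also one of the endothelial markers. Of 18 VEGF-responsive endothelial genes 1 was called, under the share of all genes: Vcam1, lower at -0.29. Of 7 related growth factor genes, Pdgfrb and Pdgfd were called lower at -0.31 and -0.27.

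The order of rats for 1 member against another showed the same division. Over 28 rats, which share library depth and neural content within a library, Spearman's rho was 0.77 between Flt1 and Flt4 and 0.65 between Kdr and Vegfa, but -0.35 between Flt1 and Kdr. With the mean of the endothelial markers, rho was 0.81 for Flt1, 0.71 for Flt4, 0.53 for Nrp1, -0.40 for Kdr and -0.58 for Vegfa. The log2 ratio of Flt1 to Kdr had a rho of -0.80 with the neural marker level and of 0.72 with the endothelial markers. The ratio was not particular to these lists, with -0.81 for lymphatic, -0.74 for microglia and macrophage and 0.67 for pericyte markers. The lymphatic and microglia lists were sparsely counted, with medians of 24.3 and 15.4 CPM summed over their genes. On the neural marker slope, 2 of 2 tested lymphatic markers had higher estimates and 1 was called. Whether these lists held anything apart from neural RNA was not tested. For smooth muscle markers the rho of the ratio was 0.20. Nrp2, Vegfc and Pgf had rho between -0.26 and 0.24 with each of the 10 marker lists.

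Genes with the most similar pattern to each member were sought among 4052 genes counted in all 28 rats, again by Spearman's rho. Flt1 was closest to Abhd2 (rho 0.95), to the adhesion receptor gene Adgrf5 (0.92) and to Abcb1a, the drug efflux pump of the blood-retina barrier (0.90). Kdr was closest to Neo1 (0.79), the netrin receptor family gene neogenin, then Gpr37 (0.75) and Sfpq (0.74). Vegfa was closest to Gm15800 (0.87), Rbm33 (0.85) and Ankzf1 (0.84). Among the genes closest to Flt4 were Gabarapl2 (0.83) and Ralb (0.82), and among those closest to Nrp1 were Bmx, an endothelial tyrosine kinase gene (0.81), and Serpinb9 (0.78).

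The more sparsely counted members had no close match. For Nrp2 the nearest genes were Pygb, Bag6 and E330009J07Rik, with rho of 0.57 to 0.55, and for Vegfb they were Exoc3, Sort1 and Mbd3, with 0.62 to 0.55. Vegfc and Pgf were counted in fewer than 20 rats and were not matched. The remaining ligand of the family, Vegfd, averaged 1.77 ± 3.09 TPM and was counted in 15 of 28 rats.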

How the data were processed

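RNA of the retinal vasculature of 28 Nile rats was sequenced, 1 library per rat. The authors deposited expected counts and TPM of 18970 genes under mouse symbols and Ensembl identifiers. These were taken as values of the authors' comparative pipeline CRSP, which assembles transcripts and maps them to annotated mouse transcripts, and tool versions are not given in the sources used here. The counts are not scaled between libraries, and no coordinates are printed because counts were not assigned on the Nile rat genome.

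Counts were rounded and tested in R 4.3.3 with the quasi-likelihood F test of edgeR 4.0.16, using TMM scaling, a filterByExpr minimum count of 10 and Benjamini-Hochberg adjustment over all genes tested. A call required an adjusted p under 0.05, with over 2-fold change in group comparisons. Slopes had sex as a covariate. EBSeq, the tool of the study, was not installed. CPM use TMM factors over all genes, and log2 CPM a prior count of 2. DESeq2 1.42.0 and limma 3.58.1 served as alternatives, with other scalings, filters, covariates and pseudocounts. The script was tested on simulated data.

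Groups follow the density labels, 17 to 18 against under 16 per mm2, and the glucose unit comes from the study's methods. Rats are separate animals. Named genes are all members, the 3 genes most like each member counted in 20 or more rats, and, of each pathway list, the genes called in a comparison or else the 2 with the smallest p between the density groups. Some genes that this rule names are not reported here. Members and lists were chosen with earlier results of these data known.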

Additional observations from a re-analysis of the deposited data

Results flagged for a closer look

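In 35 sets of 4, 5 or 8 rats the highest or lowest value was compared with the rest by Dixon's ratio, and 4 values passed. For values of a normal distribution, chance passes it in about 1 of 20 sets. Several of these sets hold values of 0 CPM, for which that rate need not hold. Nrp1 was at 298.5 CPM in T424M, against 165 CPM in the next of the 8 normal males. Nrp2 was at 34.2 CPM in T389M, against 9.34 CPM in the next of the 5 rats above 200 mg/dL glucose. Vegfb was at 17.4 CPM in T370M, against 2.71 CPM in the next of the same 5 rats. The log2 ratio of Vegfb to Vegfa was 11.9 in T448M, against 4.51 in the next normal male, from TPM plus 0.1. T448M had no Vegfa count in a library of 934248 counts, so the added TPM sets its value, and with TPM plus 1 the ratios were 8.57 and 4.43.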

How the results depend on the processing

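No paired analysis was possible because replicate numbers only follow the order of the samples. All 9 members could be tested under every setting. In the 4 comparisons on density, sex and glucose no setting called a member. Between pre-dropout and normal rats, 72 genes were called without a filter, 5 by DESeq2, 4 by limma-voom and 1 with the neural marker level as a covariate. Kdr was at -0.043 with DESeq2's size factors and with DESeq2, at -0.13 with limma-voom and at -0.0080 without libraries under 1000000 counts. Limma-voom gave -0.25 for Nrp2, -1.03 for Vegfb and 1.05 for Vegfc. Vegfc was at 0.68 and 1.10 on log2 TPM plus 1 and plus 0.1, and at 0.024 with the neural covariate, and Vegfa at 0.12 on TPM plus 0.1. On that last scale the median of all genes was 0.21. Sex as a covariate gave 0.26 for Vegfa and -0.71 for Vegfb, and males only -0.0056 for Flt4, 0.25 for Vegfa and -0.74 for Vegfb. Leaving out each pre-dropout rat gave -0.10 to 0.46 for Flt1, -0.090 to 0.18 for Kdr, -0.40 to 0.62 for Nrp2, -1.04 to 0.61 for Vegfb and -0.36 to 0.39 for Vegfc.

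By sex, DESeq2 called 37 genes. DESeq2's size factors put the median of all genes at -0.18 in place of -0.04, Kdr at -0.14 and Vegfc at 0.015, and DESeq2 gave -0.14 and 0.019. Nrp1 was at 0.024 without libraries under 1000000 counts and Vegfa at 0.41 with the neural covariate. On density, 45 genes were called without a filter and 1 with the neural covariate, where Kdr was at -0.031. Vegfb was at -0.084 over all 28 rats and -0.45 without T398F. On glucose, 152 genes were called without a filter, 21 by DESeq2, 2 without pre-dropout rats and 10 with the neural covariate. Vegfa was at -0.17 without the sex covariate. Without libraries under 1000000 counts Kdr was at -0.0035 and Nrp2 at 0.087. Without pre-dropout rats Kdr was at -0.038, Vegfa at -0.26 and Pgf at 0.20. With the neural covariate Kdr was at -0.064, Nrp1 at 0.034, Nrp2 at 0.087 and Vegfa at -0.31. Leaving out each rat above 200 mg/dL gave -0.48 to 0.14 for Nrp2, -0.040 to 0.27 for Vegfa and -1.14 to 0.015 for Pgf.

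On the neural marker level, 510 genes were called from rod markers only, where Pgf was at -0.016, and Pgf was at -0.13 without libraries under 1000000 counts. Leaving out each of 28 rats gave 1515 to 2172 calls, -0.25 to 0.27 for Pgf and -0.26 to 0.041 for Nrp2. The settings of this slope, and of density without T398F or with the neural covariate, were chosen after seeing the data. The cause of these changes was not tested. Nrp2, Vegfb, Vegfc and Pgf had no counts in 3 to 12 of 28 rats. These were not only shallow libraries: T424M, with 10029207 counts, had none of Vegfc, and T448M, with 934248, had 26.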
